A study of Mus musculus with 3 samples.

Results

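Cytosolic ribosomal protein genes were followed in skin macrophages across 3 stages of telogen, the resting phase of the hair follicle. The genes were taken by symbol, as all mouse genes named Rpl or Rps with a number together with Rplp0, Rplp1, Rplp2, and Rpsa, leaving out the Rps6k kinases and the pseudogenes. Of 95 such symbols in the gene table, 86 had a probe, out of 19752 genes with a probe on the array. They comprised 52 genes of the large subunit, 33 of the small subunit, and Rps19bp1, which encodes a binding protein of Rps19 and was taken in by its symbol alone. Of the 85 ribosomal protein genes, 76 are the standard genes (46 large, 30 small), here called core genes, and 9 are copies of another ribosomal protein gene.

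The cells were skin-resident macrophages of CD1 mice, sorted from backskin by FACS as CD11b+Gr1−F4/80+, at postnatal day 42 (early telogen, Te), day 55 (mid telogen, Tm), and day 69 (late telogen, Tl). Each stage was 1 array, hybridized with amplified RNA of a pool of 3 littermates. The comparisons between stages therefore have no replicate, no test was possible, and a difference between stages cannot be told apart from a difference between pools or arrays. All values below are log2 of the background-corrected signal relative to the 75th percentile of the array, so a difference of 1 is 2-fold.

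Each cytosolic ribosome joins a small subunit, which reads the mRNA, to a large subunit, which forms the peptide bond. Each subunit is built from ribosomal RNA and a set of ribosomal proteins, made in matched amounts and encoded by genes scattered over the genome. The mRNAs of these proteins begin with a 5′ terminal oligopyrimidine (TOP) tract, through which mTOR signaling controls their translation, a step that RNA levels do not show. In immune cells, ribosome production is known to accompany growth and activation.

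The sorted cells carried the macrophage signature on every array. All 15 macrophage markers with a probe, among them Itgam, Adgre1, Csf1r, Tyrobp, and C1qa, were well above background at Te, Tm, and Tl. Their summed signal, in units of the 75th percentile, was 1026 (Te), 946 (Tm), and 614 (Tl). Keratinocyte markers were also detected, 14 of 15 at Te and 15 of 15 at Tm and Tl, with a summed signal of 279, 409, and 279. Trp63 made up most of that sum on each array, with a log2 signal of 8.03, 8.04, and 7.35 by its brightest probe, whereas Krt5 had 1.58, 5.55, and 4.91. The sum therefore does not show the change of the list, whose median was 3.29 from Te to Tm and 3.09 from Te to Tl. Fibroblast markers (7, 7, and 8 of 8 detected) summed to 93.6, 48.6, and 50.7, and T cell markers (5 of 5 on every array) to 1.93, 6.29, and 3.70. The part of these other cells in the ribosomal protein values was not tested, and in pooled RNA fewer cells of a type and less RNA per cell cannot be told apart.

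The arrays of Tm and Tl need a caution before any value is read. The scanner file deposited for each sample was used as assigned, but the table of processed values deposited with the series holds the Tm array under Tl and the Tl array under Tm. Over 36396 probes, changes from Te in the table's Tm column differed from those of the Tl scanner file by an SD of 0.0044, against 1.29 from the Tm scanner file (36390 probes). If the table is right, every value given here for Tm belongs to Tl and the reverse, so that the higher ribosomal protein signals would lie on the late array. Values of both arrays are given throughout.

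Nearly all members were expressed. At Te, 85 of the 86 genes were well above background, and at Tm and at Tl 84 were. The exceptions were Rpl10l and Rpl3l, copies known for expression in testis and in striated muscle, respectively, and Rps25, whose brightest probe had its spot left out as an outlier at Tl. Over the 86 genes, the log2 signal had a median of 5.29 (Te), 6.26 (Tm), and 5.29 (Tl). The quartiles were 4.39 and 5.94 at Te, 5.57 and 6.61 at Tm, and 4.74 and 5.56 at Tl. The dimmest core gene was Rpl21, with -2.81, -1.94, and -2.51. The middle array therefore stood, on this scale, above the other 2, which had about the same median. Without scaling, the median change of the members was 1.19 from Te to Tl and -0.09 from Tm to Tl, so Tm and Tl then lay close together.

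**Figure D1:**
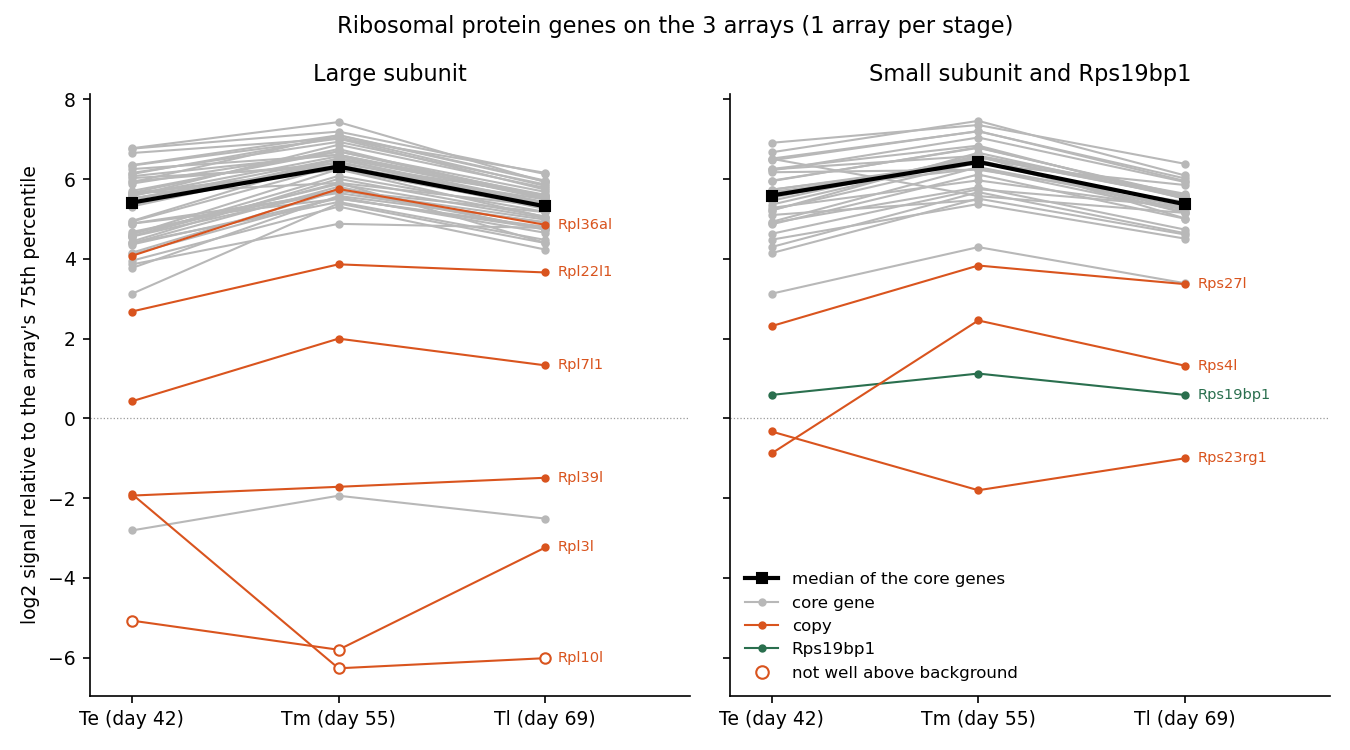
Log2 signal relative to the 75th percentile of the array (vertical axis) of each ribosomal protein gene on the arrays of Te, Tm, and Tl, 1 array per stage and without error bars, by subunit. Grey lines are core genes, orange lines copies, the green line Rps19bp1, the black squares the median of the core genes, and open circles signals not well above background. Most grey lines peak at Tm, where the median of all 86 genes was 6.26 against 5.29 on both other arrays, while the copies Rps23rg1 and Rpl10l were highest at Te.

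The arrays of Te and Tm were compared first. At Tm, 82 of 85 ribosomal protein genes with a value were higher than at Te, against 55.8% of all 15843 genes with a value. The median change was 0.92, against 0.22 over all genes. At least 2-fold higher were 40 members (29.1% of all genes) and at least 2-fold lower 2 members (16.9%), the copies Rps23rg1 and Rpl10l. The call of Rpl10l rests on its brightest probe alone, as its other probe was undetected. A single member, Rps4l, passed the 10-fold limit of the methods upward (1.12% of all genes did) and none downward (0.316%).

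Both subunits showed the same direction. The median change from Te to Tm was 1.02 over 51 large subunit genes, of which 50 were higher, and 0.84 over 33 small subunit genes, of which 31 were higher. Among core genes, all 46 of the large subunit and 29 of 30 of the small subunit were higher at Tm. The exception was Rps3. The changes of the 76 core genes had an SD of 0.46 over genes and quartiles of 0.67 and 1.20.

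From Tm to Tl the direction turned. Of 84 members with a value, 81 were lower, against 57.3% of all 14846 genes, with a median of -0.99 against -0.15. Among 145 other genes about as bright as the core genes, however, 95.9% were lower as well, a share near that of the members. At least 2-fold lower were 39 members (11.3% of all genes) and at least 2-fold higher none (7.85%), and none reached 10-fold in either direction (0.0539% higher and 0.128% lower). All 75 core genes with a value were lower, and their changes lay close together, with quartiles of -1.13 and -0.88 and an SD over genes of 0.26. Over the other genes of like brightness the SD was 0.44, beside 0.25 for the 37 core genes in that range.

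Between the early and the late array, which the study compared, the median of the family was near 0 on this scale. At Tl, 44 of 85 members were higher than at Te and 41 lower (54.7% and 45.3% of all 16164 genes), and the median change was 0.02, against 0.15 over all genes. These counts turn on the scaling, with 81 higher and 4 lower without it, 71 and 14 with quantile normalization, 69 and 16 when scaled to the median, and 31 and 54 when scaled over the probes that every array detected. The share of all genes was not counted under these scalings, but the median of all genes moved with that of the members. In the same order, the median of the members was 1.19, 0.36, 0.54, and -0.18, and that of all genes 1.32, 0.30, 0.65, and -0.05. The counts therefore do not show a rise of the family beyond that of other genes. At least 2-fold higher were 6 members (22.2% of all genes) and at least 2-fold lower 4 (20.7%). None reached 10-fold in either direction (0.668% and 0.464% of all genes). The large subunit had a median of 0.06 and the small subunit of -0.09. These 3 comparisons share arrays, so the changes from Te to Tm and from Tm to Tl are not independent of each other.

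**Figure D2:**
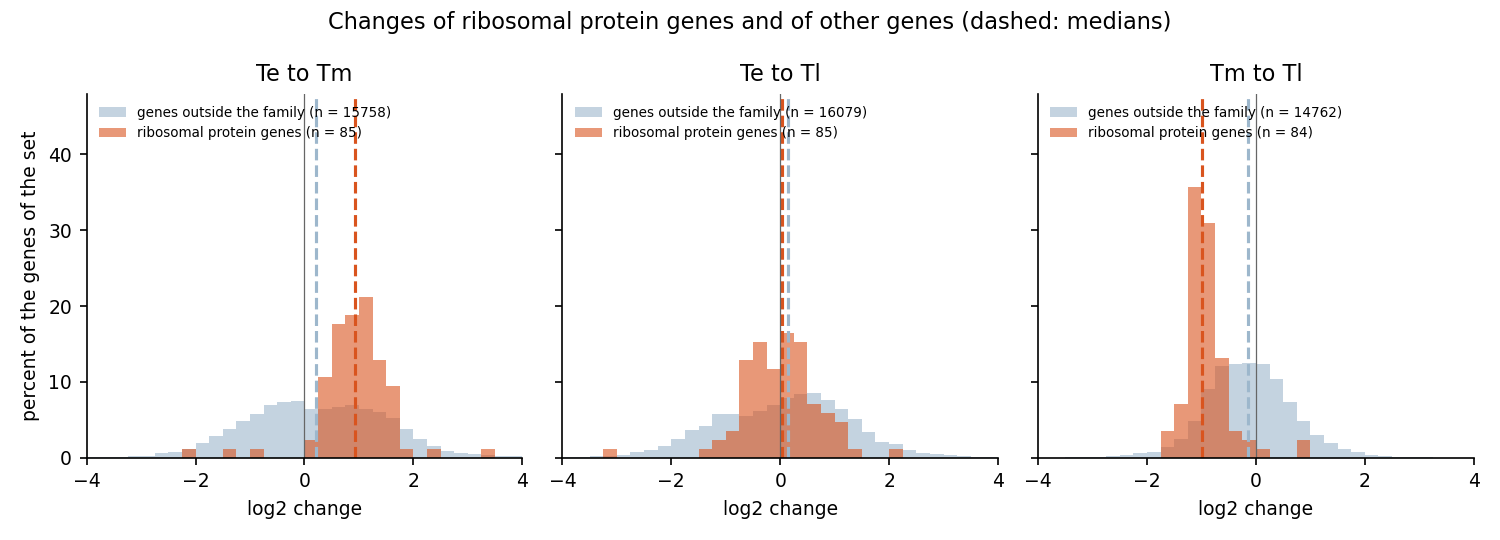
Distribution of log2 changes between pairs of arrays (horizontal axis, shown from -4 to 4) as percent of the genes of each set (vertical axis), for ribosomal protein genes (orange) and for genes outside the family (blue), with dashed lines at the medians. The ribosomal protein genes gather around 0.92 from Te to Tm and around -0.99 from Tm to Tl, and spread around 0.02 from Te to Tl.

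On this scale the array of Tm held the highest of the 3 signals for 80 of 85 members, and for 38.2% of 16485 other genes. Te was highest for 3 members and Tl for 2 (36.0% and 25.8% of other genes). The lowest signal lay at Te for 43 members, at Tl for 39, and at Tm for 3, against 45.6%, 27.8%, and 26.6% of other genes. The order of Te and Tl thus differed from gene to gene, while the place of Tm differed for few.

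How far Tm stood above the others depended on how the arrays were scaled. The 75th percentile signal was 414 (Te), 497 (Tm), and 927 (Tl). With no scaling at all, the median change of the members was 1.19 from Te to Tm and -0.09 from Tm to Tl, and the median of all genes was 0.52 and 0.72. With quantile normalization the members' medians were 0.64 and -0.22, and those of all genes 0.32 and -0.0032. Relative to the median of all genes, the members were higher by 0.70 from Te to Tm on the main scale, by 0.66 without scaling, and by 0.32 with quantile normalization. From Tm to Tl they differed from that median by -0.84, -0.81, and -0.22. The direction from Tm to Tl relative to other genes was the same in these settings, but its size was not, and 56 of 84 members were lower at Tl without scaling and 65 with quantile normalization. Leaving out the scaling adds 0.26 to every change from Te to Tm, 1.16 from Te to Tl, and 0.90 from Tm to Tl, so a gene given below as lower by less than that is higher without scaling. Taking the 75th percentile from the probes that every array detected adds -0.37, -0.21, and 0.17 instead.

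Signal strength moved with the change in all genes. Ribosomal protein genes lie among the bright probes, and genes outside the family with a mean log2 signal of 5 to 6 had a median change of -0.42 from Te to Tl, against 0.51 for those with a signal of 0 to 2. Core genes were therefore set beside other genes of the same range, from 5.16 to 6.05, which are the quartiles of the core genes. From Te to Tm, the 38 core genes in it had a median of 1.00 and the 144 other genes of 0.19. For Te and Tl, the medians were -0.01 (37 core genes) and -0.50 (144 other genes). For Tm and Tl they were -1.0 (37 core genes) and -0.70 (145 other genes). At like brightness the core genes were thus higher than the others from Te to Tm and from Te to Tl, and lower from Tm to Tl.

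The same dependence held inside the family. Between Te and Tl, the 12 members with a mean signal of 4 to 5 had a median change of 0.43, the 41 members of 5 to 6 had 0.02, and the 21 members over 6 had -0.50. From Te to Tm the medians were 1.37, 1.02, and 0.75, and from Tm to Tl -0.90, -0.99, and -1.14. The part of signal strength in the differences between single members was not tested.

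**Figure D3:**
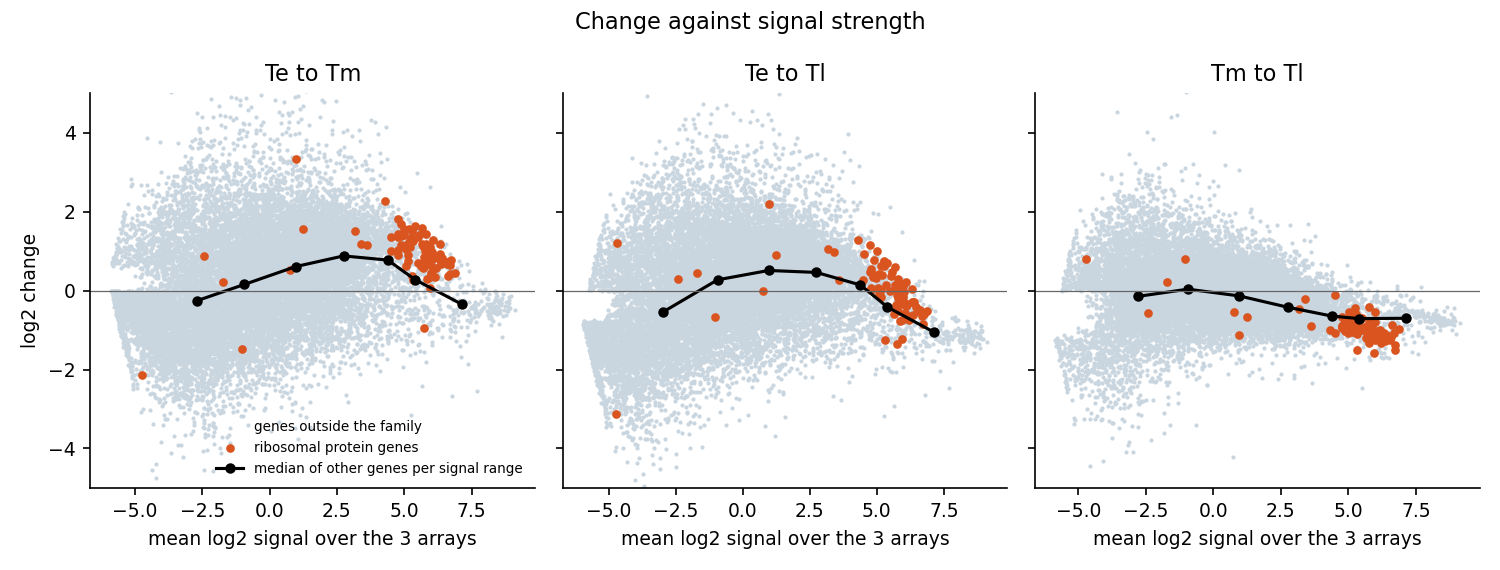
Log2 change (vertical axis, shown from -5 to 5) against the mean log2 signal over the 3 arrays (horizontal axis), for genes outside the family (grey blue), ribosomal protein genes (orange), and the median of the other genes per range of signal (black). Most members sit above the black line from Te to Tm and below it from Tm to Tl, and their change from Te to Tl declines with signal, as that of other bright genes does.

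The P stalk of the large subunit recruits the GTPase factors that drive initiation and elongation. Rplp0, which anchors it, had a log2 signal of 5.33 (Te), 6.49 (Tm), and 5.42 (Tl). Rplp1 had 5.49, 6.35, and 5.36, and Rplp2, which pairs with it, had 6.77, 7.43, and 5.92. Rpl12, at the base of the stalk, had 4.57, 5.91, and 5.32. All 4 were highest at Tm (3 of 4 without scaling or with quantile normalization), Rplp0 and Rplp1 were within 0.13 of their Te signal at Tl, Rplp2 was lower by 0.85, and Rpl12 was higher by 0.75.

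Rpl5 and Rpl11 bind the 5S ribosomal RNA and, when free, bind Mdm2, the ubiquitin ligase of p53, as Rpl23 does. The log2 signal of Rpl5 was 4.88 (Te), 5.51 (Tm), and 4.80 (Tl), that of Rpl11 4.93, 6.34, and 5.41, and that of Rpl23 5.92, 7.10, and 5.96. Each was highest at Tm (2 of 3 without scaling or with quantile normalization), by 0.63 for Rpl5, 1.41 for Rpl11, and 1.19 for Rpl23 over Te. Mdm2 was highest at Tl, differing from Te to Tl by 1.27 and from Tm to Tl by 1.01. Trp53, the gene of p53, was highest at Tm on this scale, with 2.53, 3.98, and 3.25.

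Around the exit of the peptide tunnel of the large subunit sit 9 proteins of the family, all with genes higher at Tm than at Te (median 1.10, with 8 of 9 when scaled over the probes that every array detected) and lower at Tl than at Tm (median -0.96, with 6 of 9 lower without scaling or with quantile normalization). Rpl22, a ribosomal protein that also binds other RNAs and is known for its role in lymphocyte development, differed most among the core genes from Te to Tm. Its log2 signal was 3.12 (Te), 5.39 (Tm), and 4.40 (Tl), a change of 2.27 from Te to Tm and of 1.27 from Te to Tl. Rpl23a, at the tunnel exit where chaperones dock, had 3.77, 5.58, and 4.92. Rpl35, a neighbor of Rpl23a, had 4.61, 6.25, and 5.30, a change of 1.64 from Te to Tm. Rpl22, Rpl23a, and Rpl14 (4.15, 5.71, and 5.17) were the 3 core genes at least 2-fold higher at Tl than at Te by their brightest probes. By their other probes the changes were 1.58, 0.56, and 1.29, so the call of Rpl23a turns on the choice of probe. Scaling over the probes that every array detected adds -0.21 to each change, which puts Rpl23a and Rpl14 under 2-fold. Rpl38, known for its part in the translation of Hox mRNAs, had 5.65, 6.75, and 5.50, and was lower at Tl than at Tm by 1.25 on the log2 scale.

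On the small subunit, 7 proteins line the channel through which the mRNA passes. Of their genes, 6 were lower at Tl than at Te (median over 7 genes -0.50), but 1 without scaling (0.66) and 3 with quantile normalization (0.15), and 6 were higher at Tm than at Te (median 0.73). Rps28 had a log2 signal of 5.65 (Te), 6.48 (Tm), and 5.15 (Tl), and Rpsa, the laminin receptor precursor, had 6.21, 7.04, and 5.93. On this scale both genes had Tm highest and Tl lowest. Rps14 (6.67, 7.46, and 6.09) and Rps27a (6.25, 6.84, and 5.50), which encodes a fusion of ubiquitin with a ribosomal protein, were among the 5 members with the largest decrease from Tm to Tl, with -1.37 and -1.34.

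Rps3, a protein at the entry of the mRNA channel that also acts in DNA repair and NF-kappaB signaling, was the only core gene lower at Tm than at Te by its brightest probe. That probe had a log2 signal of 6.509 (Te), 5.57 (Tm), and 5.15 (Tl), a change of -0.94 to Tm and of -1.36 to Tl. Its other probe had 4.997, 6.23, and 5.33, a change of 1.23 and of 0.33. The probes of Rps3 therefore disagree in direction, and the second one has the pattern of the family.

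Ribosomal protein genes are common reference genes in quantitative PCR, where a constant level is assumed. Between Te and Tm, Rplp0 differed by 1.16, Rpl32 by 1.58, Rps18 by 1.37, Rpl19 by 0.60, Rps29 by 0.58, and Rpl13a by 0.26. Between Te and Tl the changes were 0.09 for Rplp0, 0.59 for Rpl32, 0.47 for Rps18, -0.36 for Rpl19, -0.50 for Rps29, and -1.24 for Rpl13a. All 6 were higher at Tm than at Te (5 with quantile normalization or when scaled over the probes that every array detected) and lower at Tl than at Tm under these scalings, and 3 of the 6 were lower at Tl than at Te (1 without scaling, 2 with quantile normalization). Their changes from Te to Tl ran from -1.24 to 0.59, beside a pooled SD of 0.58 between probes of one gene, and the low end is the brightest probe of Rpl13a, whose other probe gave 0.77.

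Mutations of Rps19, Rps20, Rps6, Rpl24, and Rpl27a are known to change the pigment of mouse skin or coat. Rps19 had a log2 signal of 3.12 (Te), 4.29 (Tm), and 3.39 (Tl), and Rps20 had 5.96, 6.78, and 5.59. Rps6, whose protein is phosphorylated downstream of mTOR, had 6.17, 6.23, and 5.43. Rpl24 had 4.43, 6.01, and 5.06, and Rpl27a 4.39, 5.81, and 4.73. All 5 were higher at Tm than at Te (4 with quantile normalization or when scaled over the probes that every array detected) and lower at Tl than at Tm (4 without scaling or with quantile normalization), although Rps6 differed from Te by only 0.06 at Tm by its brightest probe and by 0.80 and 0.98 by its other probes.

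The sequence at the start of transcription, where the TOP tract lies, is shown as a description. Its relation to the changes between arrays was not tested. Promoter rows were matched in RefSeq (GRCm38.p6) for 69 members, 65 of them with a probe. Windows were taken from core genes of the stalk, Mdm2-binding, pigment, and reference lists and of the 5 largest increases and decreases per comparison. Other core genes, among them Rpsa, Rps28, and Rpl38, were not looked up for this display. The 30 bases from 10 before the annotated start are shown where the start base lies in a tract of at least 5 pyrimidines. They are given 5′ to 3′ on the strand of the gene with the tract in capitals.
Rpl14, chr9:120571507-120571536, plus strand: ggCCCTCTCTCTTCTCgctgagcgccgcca
Rpl27a, chr7:109519185-109519214, plus strand: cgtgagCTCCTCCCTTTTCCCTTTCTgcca
Rpl35, chr2:39005112-39005141, minus strand: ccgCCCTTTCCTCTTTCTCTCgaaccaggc
Rplp2, chr7:141447641-141447670, plus strand: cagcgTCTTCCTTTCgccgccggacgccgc
Rps18, chr17:33955646-33955675, minus strand: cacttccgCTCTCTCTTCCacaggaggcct
Rps6, chr4:86857348-86857377, minus strand: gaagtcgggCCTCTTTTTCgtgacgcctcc

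These genes moved by different amounts from Te to Tm, from 0.06 for the brightest probe of Rps6 to 1.64 for Rpl35. Such a tract lay over the annotated start in 23 of 81 promoters of members (28.4%) and in 10.1% of 32770 promoters of other genes. The letters CTTTCC on the strand of the gene were found within these 30 bases in 13.6% of the members' promoters and in 1.25% of the others. On either strand the shares were 13.6% and 2.55%. TTCCGG, the core of sites of ETS factors, was found on either strand of the 300 bases around the start in 45.7% and 14.8%, and TATAAA from 40 to 15 bases before the start, on the strand of the gene, in 1.23% and 2.00%. The annotated starts are not always the starts used in a cell, and these matches describe letters, not binding. Core genes without such a tract, among them Rplp0 and Rps3, are not shown. Of 3 copies given with the same window and capitals, Rps23rg1 has such a tract, and Rpl10l and Rpl36al do not.
Rps23rg1, chr8:3567988-3568017, plus strand: gcagagagTCTTTCTCTCaccccagataaa
Rpl10l, chr12:66284382-66284411, minus strand: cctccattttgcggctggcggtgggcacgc
Rpl36al, chr12:69184048-69184077, minus strand: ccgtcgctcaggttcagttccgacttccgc

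The copies were more varied than the core genes. Rps4l, a copy of Rps4x, had the largest measured change of the family. Its log2 signal was -0.88 (Te), 2.45 (Tm), and 1.32 (Tl), a change of 3.33 from Te to Tm (10.1-fold) and of 2.20 from Te to Tl. Rps4x differed by 1.25 and 0.14, so the copy exceeded its parent by 2.08 and 2.058 in these changes, with both on the same side from Tm to Tl (-1.14 and -1.11). Rps4l has 1 probe, and whether it also takes up the transcript of Rps4x was not tested.

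Rps23rg1, known as a gene derived from Rps23 by reverse transcription, ran against the family, as did Rpl10l. The log2 signal of Rps23rg1 was -0.33 (Te), -1.80 (Tm), and -1.0 (Tl), the lowest at Tm. That of Rpl10l, a copy of Rpl10, was -1.89 at Te by its brightest probe, which was not well above background at Tm and Tl. By that probe, Rpl10l was at least 4.43-fold lower at Tm and at least 8.68-fold lower at Tl. The other probe of Rpl10l was undetected at Te as well as at Tm and Tl (-6.42, -6.19, and -7.16). Expression of Rpl10l at Te and both bounds therefore rest on the brightest probe alone. Rpl10 itself was higher at Tm by 0.67 and lower at Tl by 0.61 on the log2 scale. Rpl3l, a copy of Rpl3, was well above background at Tl alone, with a log2 signal of -3.24, and was at least 2.30-fold higher there than at Te.

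Of the other copies, 4 had Tm highest on this scale, as most members did, and Rpl39l had Tl highest. Among 7 copies with a value from Tm to Tl, leaving out Rps23rg1, 5 were lower at Tl, but 1 without scaling and 3 with quantile normalization. Rps27l, a gene known to respond to p53, had a log2 signal of 2.31 (Te), 3.83 (Tm), and 3.37 (Tl), and Rpl22l1, which can stand in for Rpl22, had 2.68, 3.86, and 3.66. Rpl36al had 4.07, 5.75, and 4.85, and Rpl7l1, a factor of ribosome assembly, 0.43, 2.00, and 1.33. All 4 remained higher at Tl than at Te, by 0.78 to 1.05, where their parents differed by -0.02 to 1.27. Rpl39l, a copy of Rpl39, had -1.94, -1.72, and -1.49, within 0.45 on all arrays. Over the 9 copies, the median change from Te to Tl was 0.90, with 7 higher and 2 (Rps23rg1 and Rpl10l) lower, beside 37 of 75 core genes and 54.7% of all genes higher. Together with Rps19bp1, the copies had a median log2 signal of 0.05 at Te, against 5.49 for the core genes. Genes outside the family had median changes from Te to Tl of -0.55 below a signal of -2, and 0.27 from -2 to 0. From 0 to 2 they had 0.51, from 2 to 4 0.46, and from 4 to 5 0.14. The part of signal strength in the difference between copies and core genes was not tested. Rps19bp1, which is not part of the ribosome, had 0.59, 1.12, and 0.59.

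For 53 of the 86 genes more than 1 probe was on the array, which shows how far a single change can be trusted. Of 169 probes of members, 163 were higher at Tm than at Te, with a median of 1.05, and of 167 probes 157 were lower at Tl than at Tm, with a median of -0.95. Between Te and Tl, 101 of 168 were higher, with a median of 0.17. The pooled SD between probes of the same gene was 0.51, 0.34, and 0.58 for these comparisons, larger than the SD between repeated spots (0.17, 0.16, and 0.17). At Tl against Te, 19 of 49 genes with several measured probes had probes of opposite sign, but from Te to Tm 3 of 50 had.

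Several of the largest changes from Te to Tl rested on the brightest probe alone. Rpl13a, which also silences inflammatory mRNAs in macrophages as part of the GAIT complex, had a log2 signal of 5.64 (Te), 5.90 (Tm), and 4.40 (Tl) by its brightest probe and of 2.32, 3.56, and 3.09 by the other, a change of -1.24 and of 0.77. Rps12 had -1.23 by its brightest probe (6.24, 6.58, and 5.01) and 0.13 by the other (5.24, 6.40, and 5.37). Rps6 had -0.74, 0.22, and 1.63 by its 3 probes. The 4 members at least 2-fold lower at Tl included Rps3, Rpl13a, and Rps12, so their calls turn on the choice of probe.

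In the change from Te to Tl, 15 genes had probes over 1 apart, and from Te to Tm and from Tm to Tl 7 each. Dim probes differed from bright ones in one direction. Where probes of a gene were over 2 apart in signal, the dimmest had the higher change in 11 of 13 genes from Te to Tl, in 10 of 14 from Te to Tm, and in 12 of 14 from Tm to Tl. One probe of Rpl23 was spotted 10 times, with log2 signals of -0.46, 0.56, and 1.14 and an SD over its spots of 0.07, 0.17, and 0.11, while the brightest probe of the gene had 5.92, 7.10, and 5.96. The repeated spots agreed among themselves, and the probes of the gene did not.

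**Figure D4:**
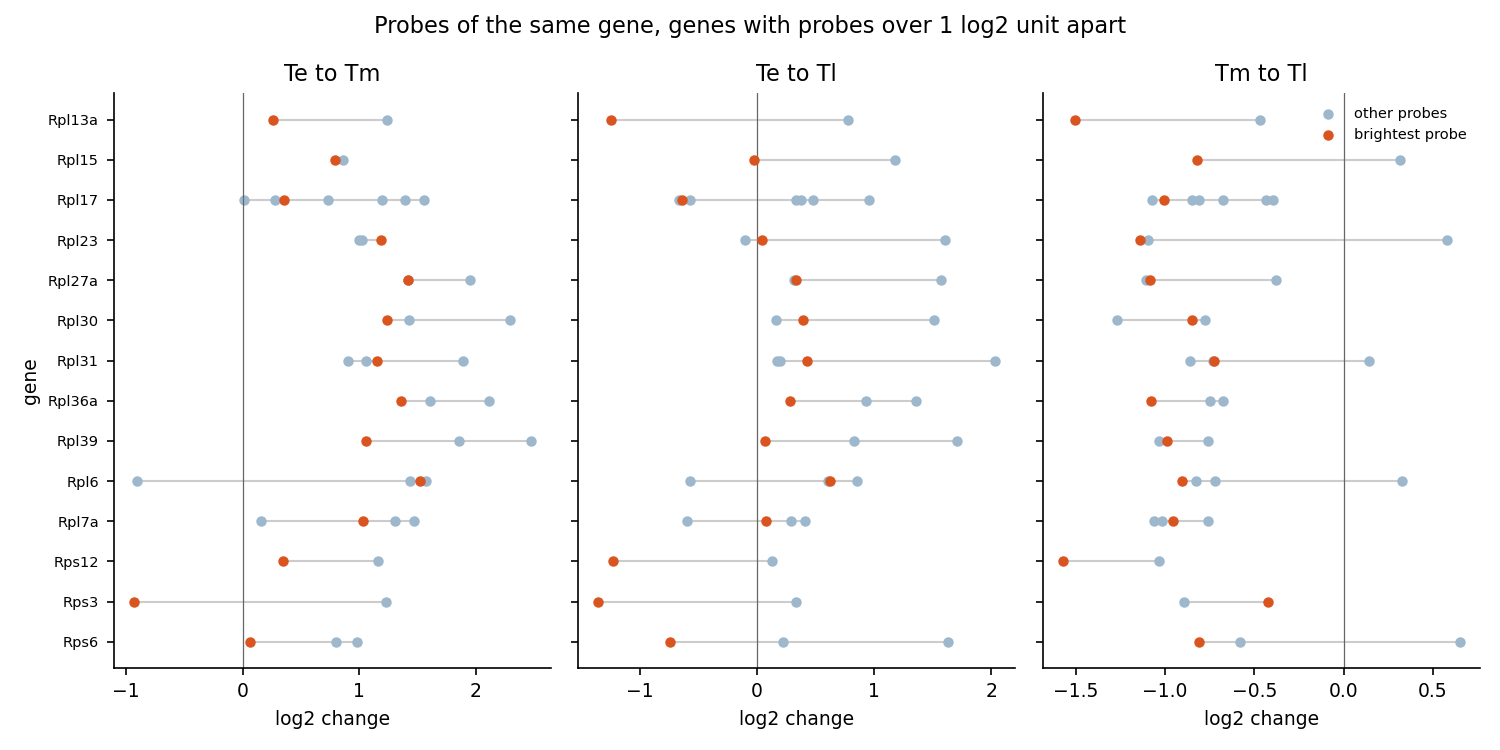
Log2 change between arrays (horizontal axis) of each probe of 14 of the 15 genes (vertical axis) with probes over 1 log2 unit apart in at least 1 comparison, with the brightest probe in orange and others in blue, joined by a grey line. Most probes lie right of 0 from Te to Tm and left of 0 from Tm to Tl, while from Te to Tl the probes of Rpl13a, Rps3, Rps6, and Rps12 lie on both sides.

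A pair of ribosomal proteins that the symbol rule leaves out had the pattern of most members. Fau, which encodes a fusion of a ubiquitin-like protein with a ribosomal protein, had log2 signals of 6.53, 7.22, and 6.01 at Te, Tm, and Tl. Rack1, a scaffold protein on the small subunit, had 5.73, 6.71, and 5.57. Both were highest at Tm under every scaling tried and, on this scale, at least 2-fold lower at Tl than at Tm.

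Mitochondrial ribosomal proteins, which build the separate ribosome of mitochondria, shared the first direction and not the second to the same extent. Of 77 with a value, 71 were higher at Tm than at Te (median 1.49), 54 of them at least 2-fold, and 70 were higher at Tl than at Te (median 0.83). Of all genes, 55.8% were higher at Tm than at Te, 29.1% at least 2-fold, and 54.7% were higher at Tl than at Te. At Tl, 64 of the 77 mitochondrial genes were lower than at Tm (median -0.58), beside 57.3% of all genes. At least 2-fold lower were 7 of them (11.3% of all genes), and without scaling 14 were lower (median 0.32). Mrpl40 differed most from Te to Tm (3.01), followed by Mrps14 (2.54), and Mrps10 least (-1.03), followed by Mrps11 (-0.44). These genes are dimmer than the cytosolic ones, and most had mean log2 signals of 0 to 4. From Te to Tl, the 39 with a signal of 0 to 2 had a median of 1.06 against 0.51 over other genes of that range, and the 24 of 2 to 4 had 0.78 against 0.45. A difference in brightness therefore lies beside the contrast with the cytosolic set, whose median was 0.02.

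Most genes of factors that work on the ribosome were higher at Tm on this scale, but relative to all genes their medians were near 0 with quantile normalization (0.0043 for elongation and -0.04 for initiation factors). Of 7 elongation factors, all were higher at Tm than at Te (median 0.79, with 4 of 7 under quantile normalization), and 6 were lower at Tl than at Tm (median -0.70), but 2 without scaling (0.20) and 3 with quantile normalization (0.03). Among them Eef2, which moves the ribosome along the mRNA, had log2 signals of 4.10, 5.57, and 4.45 and Eef1a1, which delivers the tRNA, 5.36, 6.16, and 5.47. Of 29 initiation factors, 22 were higher at Tm than at Te (median 0.71, with 19 of 29 and 0.28 under quantile normalization), beside 55.8% of all genes. The other 7 were lower, 3 of them at least 2-fold (16.9% of all genes) and 1 at least 10-fold (0.316%), with a lowest change of -3.64. At Tl, 21 of the 29 factors were higher than at Te (median 0.54), beside 54.7% of all genes. The extremes of the initiation factors from Te to Tl were Eif3m (2.00) and Eif2s2 (1.41) against Eif4g2 (-2.43) and Eif2s3x (-1.16). Between Tm and Tl their median was -0.09, 0.81 without scaling, and 0.23 with quantile normalization.

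Ribosome biogenesis factors, which make and fold the ribosomal RNA in the nucleolus, had a median of 0.86 from Te to Tm (32 of 41 higher, 18 at least 2-fold) and of 0.70 from Te to Tl (35 of 41 higher, 15 at least 2-fold). Of all genes, 55.8% were higher from Te to Tm and 29.1% at least 2-fold, and from Te to Tl 54.7% and 22.2%. Rrs1, needed for large subunit assembly, differed by 2.03 from Te to Tl, and Rrp12 by -2.62. Of 9 other genes with TOP mRNAs, all were higher at Tm (median 0.58, with 7 of 9 under quantile normalization), with Nap1l1 (2.30) and Pfdn5 (1.93) at the top and Npm1 (0.04) and Cct4 (0.39) at the bottom, and 6 were higher at Tl (median 0.62). Regulators of ribosome synthesis had medians of 0.41 to Tm and 0.70 to Tl. Among them Myc had log2 signals of -0.41, -0.20, and -0.71, Mtor -0.20, 0.20, and 0.33, and Larp1, the repressor of TOP mRNAs, 0.59, 1.16, and 1.64. Rheb, the activator of mTOR, differed from Te to Tl by 2.02, and the partners Tsc1 and Tsc2, which inhibit Rheb, by 1.08 and -1.25. The kinase gene Rps6kb1 differed by -0.74.

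Between Tm and Tl the medians were -0.07 for biogenesis factors (0.83 without scaling), -0.33 for other TOP mRNAs (0.57), and -0.13 for regulators (0.77), beside -0.15 over all genes (0.72) and -0.99 for the ribosomal proteins (-0.09). Without scaling, the cytosolic ribosomal proteins thus had a median below 0 and these other lists did not. Macrophage markers had a median of -0.44 from Te to Tm, -0.44 from Te to Tl, and -0.36 from Tm to Tl, and without scaling of -0.17, 0.73, and 0.54 (0.12 from Te to Tm when scaled to the median). Keratinocyte markers had 3.29, 3.09, and -0.26 (0.64 from Tm to Tl without scaling), and proliferation markers 1.64, 1.28, and -0.44 (0.46). Keratinocyte and proliferation markers were thus higher than at Te on both later arrays, where the ribosomal proteins on this scale were higher on the array of Tm. The part of these cells in the ribosomal protein values was not tested.

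**Figure D5:**
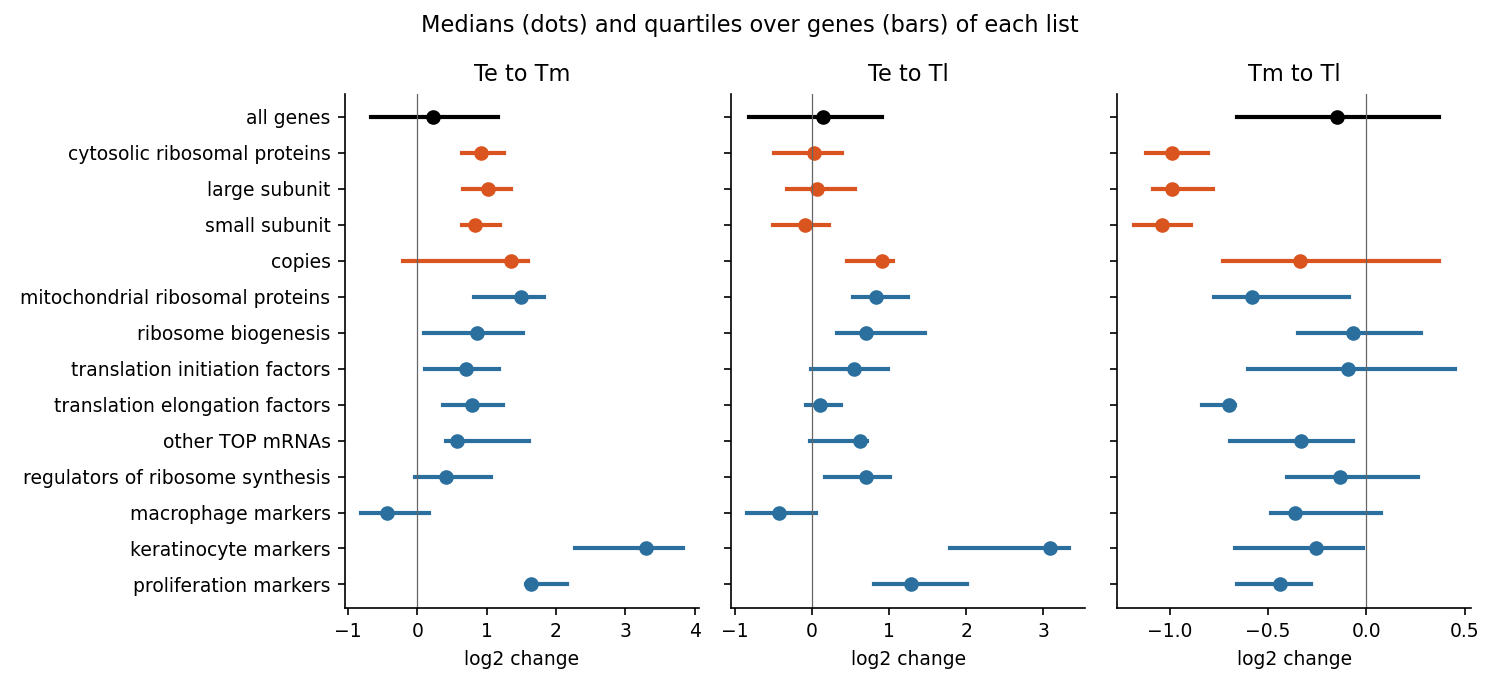
Median log2 change on the 75th percentile scale (dots) and quartiles over genes (bars) of each gene list between pairs of arrays (horizontal axes differ between panels), with the ribosomal protein genes of the symbol rule in orange, all genes in black, and other lists in blue. From Tm to Tl the cytosolic ribosomal proteins (median -0.99) lie left of the other lists shown, and from Te to Tl they lie near 0 while mitochondrial ribosomal proteins have a median of 0.83. Without scaling, other lists such as initiation factors (0.81) lie above 0 from Tm to Tl.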

How the data were processed

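RNA of FACS-isolated skin macrophages (0.05 to 1 ng) was amplified with the WTA2 kit, labeled with Cy3, and hybridized to 1 Agilent array per stage. The authors deposited scanner files with linear spot intensity values, background-corrected by Feature Extraction 10.7.3.1 and not normalized between arrays, and a table of log2 values whose scaling is not given in the sources used here. The labels give day 42 for Te and the text of the study day 44.

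Control and outlier spots were left out (162, 274, and 281 spots), spots of a probe were averaged, and the log2 of the array's 75th percentile was subtracted from that of each probe. No spot was saturated. Detection required at least 0.5 of a probe's spots to be well above background, which held for 71.4%, 59.6%, and 68.7% of probes at Te, Tm, and Tl. A change was given with detection on at least 1 array, and on 1 side only as a bound against the higher of the lowest detected signal and the dim probe's own signal. RefSeq accessions named 26056 of 55681 probes. A gene was its probe with the highest mean signal. Probe sequences were not used here, so signal shared between copies could not be checked. Without replicates, no test was run, and 1 array per stage limits the precision. The SD of 10 repeated spots was 0.13, 0.11, and 0.12.

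The members and lists were chosen with earlier results of these data known, so no list is independent evidence. Single genes are not reported by name here in a few cases. Named genes were those of the stalk, Mdm2-binding, pigment, reference, and copy lists, the 5 largest increases and decreases per comparison, genes not well above background on some array, genes with probes over 1 apart, and the extremes of the other lists. Other genes of the channel, tunnel, and regulator lists were named after their values were seen. The alternatives were other scalings, normexp with an offset of 50 (limma 3.58.1), other filters and probes, the deposited table, and the Tm and Tl arrays exchanged. The scripts (Python 3.11.15) were tested on simulated data.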

Additional observations from a re-analysis of the deposited data

How the results depend on the processing

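A median was taken as stable when it moved by less than the pooled SD between probes of a gene (0.58 from Te to Tl, 0.51 from Te to Tm, 0.34 from Tm to Tl), and a count when it stayed within 1.5 times. The exchange of the Tm and Tl arrays turned the most results. With it, the medians of all members, the large, and the small subunit were 0.92, 1.02, and 0.84 from Te to Tl (40 members at least 2-fold higher, 2 lower), 0.0243, 0.0575, and -0.0903 from Te to Tm (6 and 4), and 0.99, 0.99, and 1.04 from Tm to Tl (39 and 0). Rpl13a and Rps12 became 0.26 and 0.34 from Te to Tl, and Rps12, Rplp2, Rpl13a, Rps14, and Rps27a became 1.57, 1.504, 1.504, 1.37, and 1.34 from Tm to Tl. The deposited table, of probes selected for varying, holds 143 probes of members, among them the brightest probe of 70 members. For these 70 it gave by its own labels 1.08, 1.13, and 0.90 (40 and 2), 0.0746, 0.0858, and -0.17 (6 and 4), and 1.04, 1.01, and 1.08 (41 and 1), with Rpl13a and Rps12 at 0.26 and 0.35 from Te to Tl and the other 5 at 1.58, 1.51, 1.51, 1.37, and 1.34.

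Without scaling, the 3 medians were 1.19, 1.22, and 1.07 from Te to Tl (52 members at least 2-fold higher, 1 lower) and -0.0895, -0.0858, and -0.14 from Tm to Tl (3 and 0). All genes then had medians of 1.32 and 0.72. Scaled to the median, the 3 medians were 1.48, 1.58, and 1.39 from Te to Tm (73 and 1), and from Te to Tl 17 members were 2-fold higher and 1 lower. All genes then had medians of 0.86 from Te to Tm and 0.65 from Te to Tl. Quantile normalization gave -0.22, -0.17, and -0.29 from Tm to Tl (0 lower), 11 members higher from Te to Tm, and 1 lower from Te to Tl. With the percentile over probes detected on all arrays, 2 members were 2-fold higher from Te to Tl, 16 from Te to Tm, and 16 lower from Tm to Tl. The share of all genes past 2-fold was not counted under these other scalings, so the counts of members stand without it. The median over a gene's probes left 1 member 2-fold lower from Te to Tl and 1 higher from Tm to Tl, plain ratios gave 1 higher from Tm to Tl, and detection on both arrays left 1 lower from Te to Tm. Normexp and the kept outlier spots moved none of these medians or counts. Counts were not taken over single probes. No paired analysis was possible because each stage has 1 array, and for the same reason no array could be left out. The cause of these differences was not tested.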
